A study of Thermothelomyces thermophilus ATCC 42464 with 8 samples.

Results

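The genes described here are the mitosis and cytoskeleton genes of the thermophilic fungus Myceliophthora thermophila, 157 of the 9110 genes in the deposited table. They were chosen by words in their annotation. The part of the deposited description before its first semicolon had to hold kinetochore, spindle, anaphase, mitotic, mitosis, cyclin, cohesin, condensin, tubulin, septin, kinesin or dynein, and 2 genes whose text also named DNA replication or DNA polymerase were left out. A description was given for 4214 genes and refers to proteins of the budding yeast Saccharomyces cerevisiae, so the roles below are those of the yeast match and were not measured in this fungus. A further 23 descriptions were not analysed here. The 157 genes shared 24 descriptions among 63 of them, and 5 genes carried the same polo-like kinase text.

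The words fitted the label for most members, with exceptions that were kept because the rule kept them. The letters of cyclin also occur in recycling, which brought in 9 genes of membrane traffic, peroxisomes and splicing. Members also included 7 subunits of the Cct chaperonin, which folds tubulin and actin, 9 cyclins or inhibitors of the Pho85 kinase, 4 kinases or cyclins of RNA polymerase II, 4 mismatch repair genes and 1 endochitinase, whose descriptions mention a word of the rule without placing the protein in the mitotic machinery. Counts are given for all 157 genes. Without the 9 recycling matches, 148 genes remained, and no count of called genes in the 6 comparisons changed. Counts with no fold minimum did change, as given with these matches below.

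The study asked how transcript levels responded to loss of xylose reductase and to a Weimberg pathway, an oxidative bacterial route for d-xylose. JG207 was the starting strain, which overexpresses Aomae, a malate transporter gene, and Aopyc, a pyruvate carboxylase gene, and the other 3 strains were built on it and share these changes. DF1102 lacks the xylose reductase gene Mtxyl1. DF1406 carries the same deletion plus Mtxyd1, xylD, xylX and xylA, and DF1501 carries the deletion plus Mtxyd1, xylD, BxxylX and ksaD. Both pathways were inserted at random places and in several copies, with Mtxyd1 under Ptef and xylD under Pgpda, so pathway, insertion site and strain cannot be told apart. Each strain had 2 libraries of whole mycelium, grown for 24 h on 2% glucose at 45 °C and then kept for 4 h in 1% d-xylose.

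Nuclear division in fungi rests on microtubules, polymers of alpha- and beta-tubulin that grow from gamma-tubulin complexes at the spindle pole body and attach to chromosomes at kinetochores. Cohesin holds sister chromatids together until the anaphase-promoting complex, a ubiquitin ligase switched on by cyclin-dependent kinase activity, triggers their release, while septins mark the site of the division wall. In filamentous fungi, microtubules and their motors also carry vesicles and nuclei along the hypha.

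The libraries held 20727346 to 21408353 reads assigned to genes, and all 157 members were among the 8335 genes that passed the filter on low counts and were tested. Mean member levels ran from 0.348 to 448 RPKM, a read count scaled to gene length and to library size, with a median of 21.5 against 22.4 over all tested genes. Mtxyl1 (Mycth_43671) stood at 1676 and 1773 RPKM in JG207 and between 102 and 412 RPKM in the 6 libraries of the deletion strains, lower in each of them but not at 0. The replicates of DF1501 differed most, with a root mean square deviation of 0.202 on the log2 scale against 0.137 to 0.155 in the other strains. For members the replicates of 2 strains leaned one way. Replicate 2 was the higher one for 128 of 157 members in JG207, or 81.5% against 68.5% of all tested genes, and for 125 members in DF1501, or 79.6% against 64.4%. In DF1102 and DF1406 it was the higher one for 71 and 64 members. These counts use RPKM as deposited, without the library scaling factors of the fit, by which values are divided. The factors were 0.970 and 1.047 for replicates 1 and 2 of JG207 and 0.980 and 1.049 for those of DF1501. The median over all tested genes leaned to replicate 2 by 0.120 and 0.099 on the log2 scale in these 2 strains. The part of these replicate differences in the results below was not tested. The sources used here do not state whether a strain's libraries stem from independent cultures, and the p-values then cover no more than the spread of the sequenced samples, part of which could be technical. In whole mycelium, fewer dividing cells or nuclei and less transcript in each cannot be told apart.

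A gene was called when the edgeR quasi-likelihood test gave a Benjamini-Hochberg adjusted p of at most 0.05 over all tested genes and the fold was at least 2 against JG207, or at least 1.5 in the other comparisons. In DF1102 against JG207, 13 members were called lower and 4 higher. These are 8.28% and 2.55% of the members, against 11.1% and 10.2% of all tested genes, so both shares lay below the background, a difference that was not tested. With no fold minimum, 52 members were lower and 34 higher, or 33.1% and 21.7% against 29.5% and 27.8%. Counts by adjusted p alone in this comparison, given below, stand beside these 29.5% lower and 27.8% higher of all tested genes. The 34 became 22 without replicate 1 of JG207 and 20 without replicate 2 of DF1102, and the 52 stayed between 37 and 41 with any 1 of the 4 libraries left out. In DF1501 against DF1102, 13 members were called higher and 6 lower, or 8.28% and 3.82% against 13.1% and 8.24%, and with no fold minimum 26 and 24, or 16.6% and 15.3% against 18.2% and 16.3%. The latter counts were 10 and 13 without replicate 1 of DF1102, 10 and 11 without replicate 2 of DF1102, 31 and 21 without replicate 1 of DF1501, and 15 and 17 without replicate 2 of DF1501. The remaining comparisons called 8 members or fewer each. At these thresholds no comparison had a larger share of members than of all tested genes, and the counts alone are no result about the members.

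**Figure D1:**
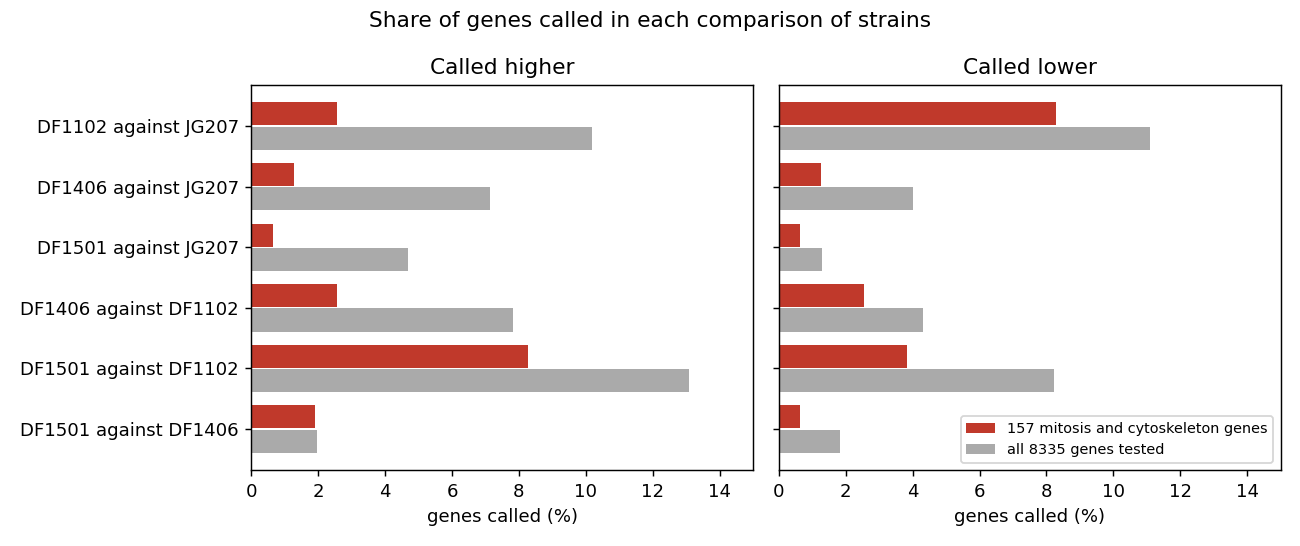
Share of genes called higher (left) and lower (right) in each of the 6 comparisons, in percent, for the 157 members (red) and for all 8335 genes tested (grey). The red bar is shorter than the grey bar in each pair, as in DF1102 against JG207 with 2.55% against 10.2% higher and 8.28% against 11.1% lower, and the pair for DF1501 higher than DF1406 is closest, at 1.91% against 1.96%.

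The tubulins themselves did not move as one. In DF1102, an alpha-tubulin gene, the beta-tubulin gene and the gamma-tubulin gene were all called lower than in JG207, while a second alpha-tubulin gene of higher level was not. The alpha-tubulin match Mycth_2312947 was measured at 243 and 281 RPKM for JG207, 101 and 123 for DF1102, 156 and 137 for DF1406, and 147 and 236 for DF1501. Both DF1102 libraries lay below all 6 others (log2 fold change -1.22, SE 0.20, edgeR adjusted p = 0.000719). Against DF1406 and DF1501 the JG207 libraries were again the higher ones, without overlap, but neither difference was called. The log2 fold change of -0.78 in DF1406 passed the adjusted p short of the fold minimum, and that of -0.47 in DF1501 did not pass (edgeR adjusted p = 0.0136 and 0.116).

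The beta-tubulin match Mycth_2306723, the partner of alpha-tubulin in the microtubule, stood at 336 and 441 RPKM for JG207, 154 and 186 for DF1102, 259 and 242 for DF1406, and 224 and 343 for DF1501. Its order over the strains was that of the alpha-tubulin gene, with DF1102 lowest and no overlap with any other strain (log2 fold change -1.19, SE 0.20, edgeR adjusted p = 0.000897). The gamma-tubulin match Mycth_2307398, which nucleates microtubules, was measured at 20.6 and 26.3 RPKM for JG207, 9.96 and 12.7 for DF1102, 14.95 and 13.98 for DF1406, and 12.4 and 18.1 for DF1501. It was lower in DF1102 than in JG207 (log2 fold change -1.04, SE 0.18, edgeR adjusted p = 0.00114), and DF1102 overlapped DF1501. The second alpha-tubulin match Mycth_2294321 stood at 404 and 459 RPKM for JG207, 424 and 465 for DF1102, 478 and 469 for DF1406, and 433 and 449 for DF1501, so that JG207, DF1102 and DF1501 overlapped and DF1406 lay just above them. Its difference between DF1102 and JG207 was 0.04 on the log2 scale (SE 0.11, edgeR adjusted p = 0.803). Per length, this gene was the more abundant alpha-tubulin in all 8 libraries.

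**Figure D2:**
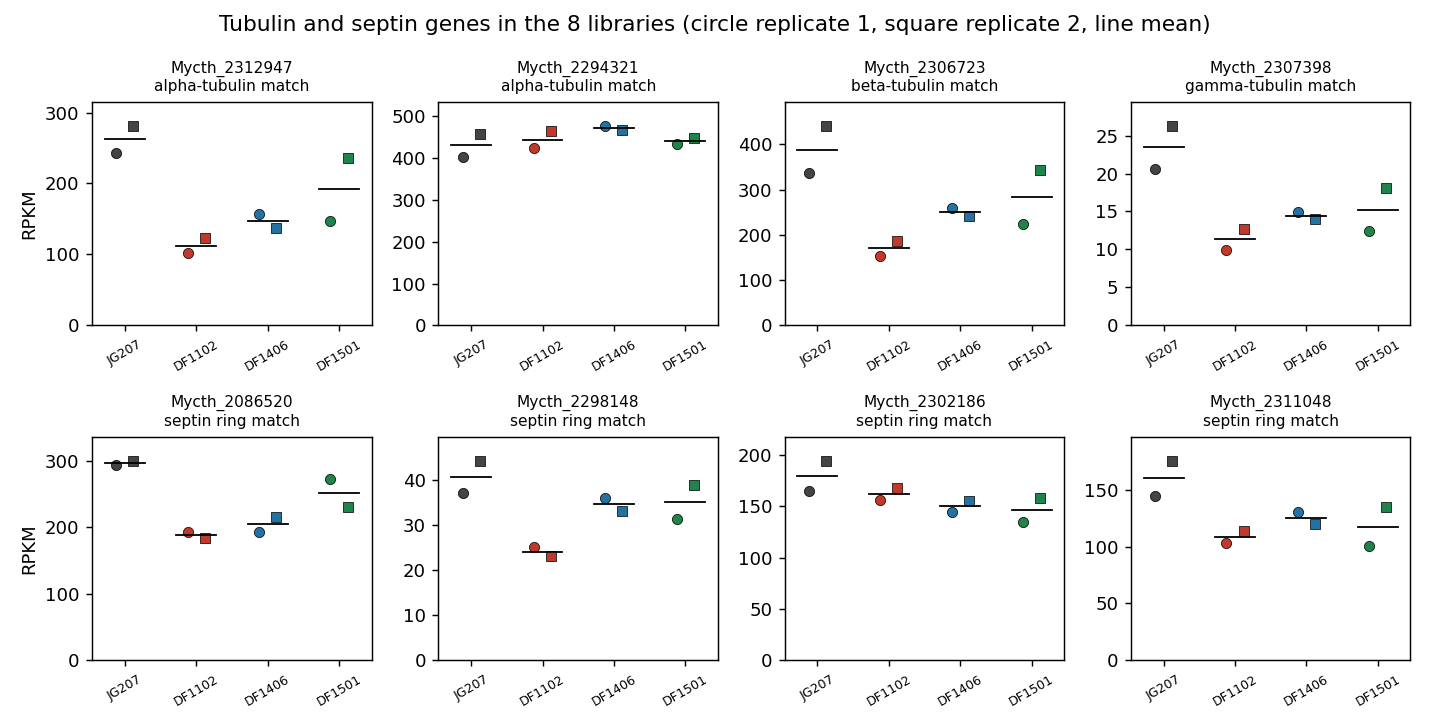
RPKM of the 4 tubulin and 4 septin ring matches in each library, by strain, with circles for replicate 1, squares for replicate 2 and lines for the mean of 2. The DF1102 points lie lowest for alpha-tubulin Mycth_2312947, beta-tubulin Mycth_2306723 and septin Mycth_2298148, whereas alpha-tubulin Mycth_2294321 stays between 404 and 478 RPKM.

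Genes that serve tubulin moved in both directions. Of the 20 members with tubulin in the text, 4 were called lower and 0 higher in DF1102 against JG207, or 20% lower against 11.1% of all tested genes, and 8 and 5 passed the adjusted p with no fold minimum. The fourth called gene, Mycth_2294816, matches a protein that protects yeast from excess free beta-tubulin and had 34.1 and 43.4 RPKM for JG207, 19.2 and 18.8 for DF1102, 25.1 and 26.5 for DF1406, and 25.5 and 37.05 for DF1501. Both DF1102 libraries were the lowest of the 8 (log2 fold change -1.03, SE 0.17, edgeR adjusted p = 0.000810). The tubulin folding cofactor B match Mycth_2312622 was lower short of the fold minimum (log2 fold change -0.74), and so was the prefoldin subunit Mycth_2308301 (-0.57), while the alpha-tubulin-binding cofactor Mycth_2294310 was higher (0.37), each with an edgeR adjusted p of 0.000412, 0.00392 and 0.0150 in that order. The 2 gamma-tubulin complex matches went opposite ways, with -0.34 for Mycth_2302755 and 0.39 for Mycth_2299193.

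The 7 Cct chaperonin subunits leaned the other way. In DF1102 against JG207, 3 of 7 passed the adjusted p as higher, or 42.9% against 27.8% of all tested genes, and none as lower. None passed the fold minimum, and the median log2 fold change was 0.18. With 1 library left out, 1 or 2 of the 3 passed. The one with the largest difference was Mycth_2311921, at 104 and 114 RPKM for JG207, 202 and 190.2 for DF1102, 160.1 and 166 for DF1406, and 129 and 120.4 for DF1501. DF1102 was highest, DF1406 next, and neither overlapped JG207 (log2 fold change 0.84, SE 0.12, edgeR adjusted p = 0.000353). It was called lower in DF1501 than in DF1102 (log2 fold change -0.66, SE 0.12, edgeR adjusted p = 0.00399), a call that ended without replicate 2 of DF1501, where the log2 fold change of -0.56 missed the fold minimum. The tubulin tyrosine ligase match Mycth_74402 had the largest fold among members in DF1501 against DF1102 (log2 fold change 2.48, SE 0.57, edgeR adjusted p = 0.0108), on 5 reads in each DF1102 library against 40 and 16 in DF1501, and was not tested where at least 10 counts were required in every library. Leaving out either DF1102 library ended this call (edgeR adjusted p = 0.073 and 0.0666).

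The 2 members with the lowest log2 fold changes in DF1102 were kinetochore matches. Of 17 kinetochore members, 2 were called lower and 0 higher in DF1102 against JG207, or 11.8% lower against 11.1% of all tested genes, a share at the background, and 7 and 3 passed with no fold minimum. The outer kinetochore match Mycth_2311445, required for chromosome stability in yeast, stood at 36.9 and 27.03 RPKM for JG207, 11.7 and 10.6 for DF1102, 21.6 and 18.4 for DF1406, and 24.04 and 28.5 for DF1501. DF1102 lay below every other library (log2 fold change -1.53, SE 0.18, edgeR adjusted p = 0.000123). DF1501 was called higher than DF1102 (log2 fold change 1.23, SE 0.18, edgeR adjusted p = 0.00173) and so was DF1406 (log2 fold change 0.91, SE 0.18, edgeR adjusted p = 0.0110). The last call ended without either DF1102 library or without replicate 1 of DF1406, with edgeR adjusted p from 0.0705 to 0.0789.

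The Dam1 complex couples kinetochores to the ends of spindle microtubules and was matched by 4 genes, grouped here after their values were seen, as were the other complexes below. Of these, 3 were lower in DF1102 than in JG207 by adjusted p and 1 was called. These are 75% and 25%, against 29.5% and 11.1% of all tested genes. The called gene, Mycth_2311631, stood at 17.1 and 16.6 RPKM for JG207, 5.59 and 7.26 for DF1102, 8.18 and 6.52 for DF1406, and 6.98 and 7.33 for DF1501. JG207 stood apart from the 3 deletion strains, which overlapped each other, and the gene was called lower in all 3 comparisons with JG207 (log2 fold change -1.39, SE 0.20, edgeR adjusted p = 0.000397 for DF1102). Its log2 fold changes were -1.14 and -1.24 for DF1406 and DF1501, and the call in DF1406 ended without replicate 2 of that strain, where the log2 fold change of -0.98 missed the fold minimum. It was the only member called lower in DF1501 against JG207. A second Dam1 match, Mycth_2312047, had 20.4 and 23.6 RPKM for JG207, 10.6 and 11.6 for DF1102, 15.3 and 16.7 for DF1406, and 16.9 and 17.96 for DF1501 and missed the 2-fold minimum in DF1102 (log2 fold change -0.98, SE 0.14, edgeR adjusted p = 0.000368). Both DF1406 and DF1501 were called higher than DF1102 (0.59 and 0.64). The first call was lost whichever of its 4 libraries was left out (edgeR adjusted p from 0.0631 to 0.133) and the second without replicate 1 of DF1102 (0.0663). The first also missed the fold minimum with library size scaling and in limma, at log2 fold changes of 0.49 to 0.52. The other 2 matches, Mycth_2299067 and Mycth_2308513, differed between DF1102 and JG207 by -0.66 and 0.04.

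The 3 Ndc80 complex matches, the microtubule-binding core of the kinetochore, did not share a direction. The match Mycth_2299301 stood at 45.7 and 38.8 RPKM for JG207, 28.9 and 26.96 for DF1102, 23.4 and 33.2 for DF1406, and 43.8 and 42.5 for DF1501, and JG207 and DF1501 overlapped while DF1102 was lower than both. It was called higher in DF1501 than in DF1102 (log2 fold change 0.63, SE 0.18, edgeR adjusted p = 0.0267), a call lost without either DF1102 library or replicate 1 of DF1501 (edgeR adjusted p from 0.0742 to 0.135). Mycth_2119140, in contrast, had 15 and 17.1 RPKM for JG207, 21.5 and 21.9 for DF1102, 13.6 and 14.05 for DF1406, and 14.2 and 18.5 for DF1501 and was highest in DF1102. It was called lower in DF1406 than in DF1102 (log2 fold change -0.59, SE 0.12, edgeR adjusted p = 0.0138), which was lost whichever of the 4 libraries was left out (edgeR adjusted p from 0.068 to 0.0887). With all libraries kept, it also missed the 1.5-fold minimum in DESeq2, with RLE factors, with no filter, with at least 10 counts in every library and with only the 4 libraries, at log2 fold changes of -0.57 to -0.58. The third, Mycth_2310469, was not past the adjusted p in DF1102 against JG207 (-0.28, edgeR adjusted p = 0.0730). Mycth_2315211, a conserved kinetochore protein of several complexes and the most abundant kinetochore member, ranged from 207 to 311 RPKM and was not called in any comparison. Mycth_2050996 matches a subunit bridging centromere and microtubule, and Mycth_2303810 matches the MIND complex of the kinetochore. Both were lower in DF1102 short of the fold minimum (-0.73 and -0.67) and in DF1406 (-0.92 and -0.52).

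**Figure D3:**
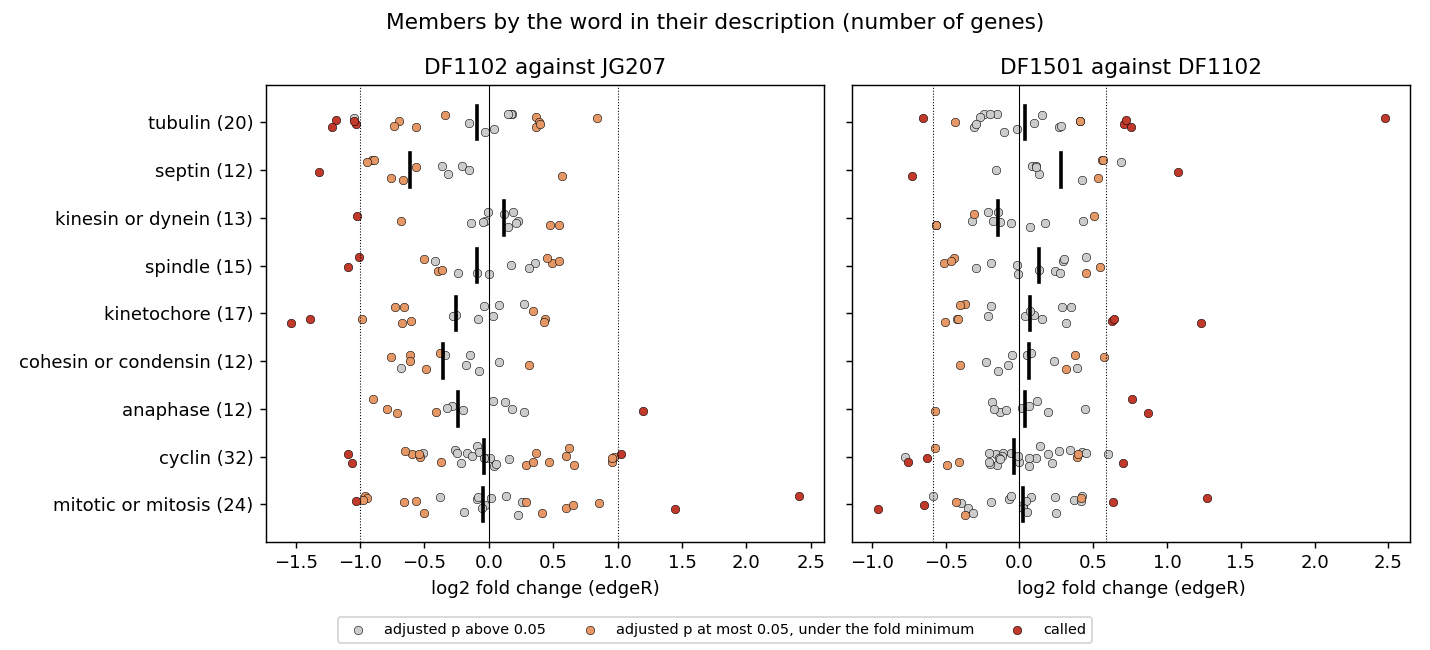
Log2 fold change of every member, grouped by the word that selected it, in DF1102 against JG207 (left) and DF1501 against DF1102 (right). Each point is a gene, black bars are group medians, dotted lines are the fold minimum, and called genes are red. In the left panel the septin (-0.62) and cohesin or condensin (-0.36) medians lie lowest and the kinesin or dynein median (0.12) lies highest.

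Among the 15 spindle members, 2 were called lower in DF1102 than in JG207 and 0 higher, or 13.3% lower against 11.1% of all tested genes, with 5 and 3 past the adjusted p alone. Both called genes match proteins that duplicate the spindle pole body, the microtubule organizer of the fungal nucleus. Mycth_2307049, a calcium-binding part of its half-bridge, had 30.1 and 34.2 RPKM for JG207, 14.9 and 15.2 for DF1102, 20.5 and 19.7 for DF1406, and 20.1 and 24.2 for DF1501. JG207 was highest and DF1102 lowest, with no overlap between them or with the other strains (log2 fold change -1.10, SE 0.12, edgeR adjusted p = 9.83e-05). Mycth_2296876, a dual-specificity kinase that also serves the spindle checkpoint in yeast, stood at 12.97 and 15.8 RPKM for JG207, 6.88 and 7.47 for DF1102, 7.23 and 5.74 for DF1406, and 8.04 and 11.8 for DF1501. It was called lower in DF1102 and in DF1406 than in JG207 (log2 fold change -1.01, SE 0.17, edgeR adjusted p = 0.000941 and log2 fold change -1.09, SE 0.17, edgeR adjusted p = 0.00152). Both calls sat at the 2-fold minimum. That in DF1102 also ended with all libraries kept, at log2 fold changes of -0.9977 in DESeq2, -0.9944 with RLE factors, -0.9865 with at least 10 counts in every library, -0.9917 with only the 4 libraries compared, -0.9903 in limma on log2(RPKM + 0.1) and -0.91 on log2(RPKM + 1). That in DF1406 ended without replicate 2 of JG207 or of DF1406, at log2 fold changes of -0.9989 and -0.93.

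A spindle member with a pattern of its own was Mycth_2300332, a forkhead factor match that drives S-phase genes for chromosome segregation in yeast. It was measured at 13.1 and 15.9 RPKM for JG207, 21.2 and 19.6 for DF1102, 9.85 and 10.6 for DF1406, and 13.9 and 14.8 for DF1501, highest in DF1102 and lowest in DF1406. It was called lower in DF1406 than in DF1102 (log2 fold change -0.93, SE 0.11, edgeR adjusted p = 0.00165), a call that held in each fit with 1 library left out. Mycth_2305050, with the same description, had 46.8 and 45.98 RPKM for JG207, 43.2 and 35.7 for DF1102, 36.2 and 36.1 for DF1406, and 52.3 and 55.8 for DF1501 and differed by -0.06 in that comparison. The spindle-assembly checkpoint matches Mycth_2307782 and Mycth_2310567 were not past the adjusted p in DF1102 against JG207, at 0.36 and 0.31. A match to the outer plaque of the spindle pole body, Mycth_2311427, was lower short of the fold minimum in DF1102 and DF1406 (-0.51 and -0.58), and the microtubule-binding match Mycth_2305340, which orients the spindle in yeast, was higher in both (0.55 and 0.46).

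Most kinesin or dynein members did not pass the test, and 1 of them, a dynein-related match, serves ribosome assembly. Of 13 kinesin or dynein members, 1 was called lower and 0 higher in DF1102 against JG207, or 7.69% lower against 11.1% of all tested genes. By adjusted p alone 2 passed in each direction, where 29.5% of all tested genes were lower and 27.8% higher. The called gene, Mycth_83111, a kinesin-related match that positions the spindle, stood at 7.99 and 9.33 RPKM for JG207, 4.42 and 4.13 for DF1102, 5.02 and 4.15 for DF1406, and 5.16 and 7.04 for DF1501. Both DF1102 libraries and replicate 2 of DF1406 were lowest (log2 fold change -1.02, SE 0.16, edgeR adjusted p = 0.000568). A kinesin-related match needed for spindle assembly, Mycth_2293965, was lower short of the fold minimum (log2 fold change -0.68, SE 0.17, edgeR adjusted p = 0.00867). A pair of kinesin-related genes went the other way. Mycth_66088 had 14.2 and 13.5 RPKM for JG207, 18.8 and 21.8 for DF1102, 13.6 and 12.9 for DF1406, and 13.5 and 14.1 for DF1501, and the 2 DF1102 libraries were above the remaining 6, which lay within 12.9 to 14.2 RPKM (log2 fold change 0.55, SE 0.12, edgeR adjusted p = 0.00323). Mycth_2309747 was higher in DF1102 by 0.48 on the log2 scale (edgeR adjusted p = 0.0224). The dynein heavy chain match Mycth_2310162 and light chain match Mycth_62074, parts of the motor that moves nuclei in hyphae, differed by -0.03 and -0.05 in DF1102 against JG207 (edgeR adjusted p = 0.819 and 0.740).

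Cohesin and condensin, which share an ancestry and a ring shape, were read apart. All 4 cohesin subunit matches were lower in DF1102 than in JG207 by adjusted p, as were 29.5% of all tested genes. None passed the 2-fold minimum, and their median log2 fold change was -0.55 against -0.01 over all tested genes. None of the 4 condensin matches passed, and their median was -0.11. In DF1406 against JG207 all 4 condensin matches lay below 0, with a median of -0.33. Of these, 1 was lower by adjusted p, or 25%, against 19.7% of all tested genes. The cohesin match with the largest difference, Mycth_2304799, was measured at 14.1 and 15.7 RPKM for JG207, 8.97 and 8.61 for DF1102, 10.2 and 11.2 for DF1406, and 12.9 and 13.3 for DF1501, with DF1102 lowest and JG207 highest (log2 fold change -0.76, SE 0.10, edgeR adjusted p = 0.000278). The most abundant, Mycth_2294252, had 53.1 and 56.4 RPKM for JG207, 39.9 and 38.6 for DF1102, 40.5 and 37.3 for DF1406, and 44.5 and 53.8 for DF1501, and JG207 and DF1501 overlapped (log2 fold change -0.48, SE 0.10, edgeR adjusted p = 0.00297). In DF1406 all 4 were again lower than in JG207 by adjusted p, as were 19.7% of all tested genes. Their median was -0.43. In DF1501 against JG207 none was lower by adjusted p, where 9.56% of all tested genes were. All 4 still lay below 0 there, with a median log2 fold change of -0.21. None of the 4 passed the adjusted p in DF1501 against DF1406. With 1 library left out, 3 or 4 of the 4 stayed past the adjusted p in DF1102 and 1 or 2 in DF1406. Mycth_97617, which matches a subunit of the cohesin loader, went the other way in DF1102 (log2 fold change 0.31, SE 0.10, edgeR adjusted p = 0.0236), and the separase match Mycth_2117988, the protease that cuts cohesin, was lower in DF1406 than in JG207 short of the fold minimum (log2 fold change -0.86, SE 0.21, edgeR adjusted p = 0.0121). A pair of neighbouring genes in the RefSeq order of assembly ASM22609v1, Mycth_2305145 and Mycth_2305146, carry the same chromatid condensation text and differed by -0.61 and -0.68 in DF1102 against JG207, past the adjusted p for the first only.

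**Figure D4:**
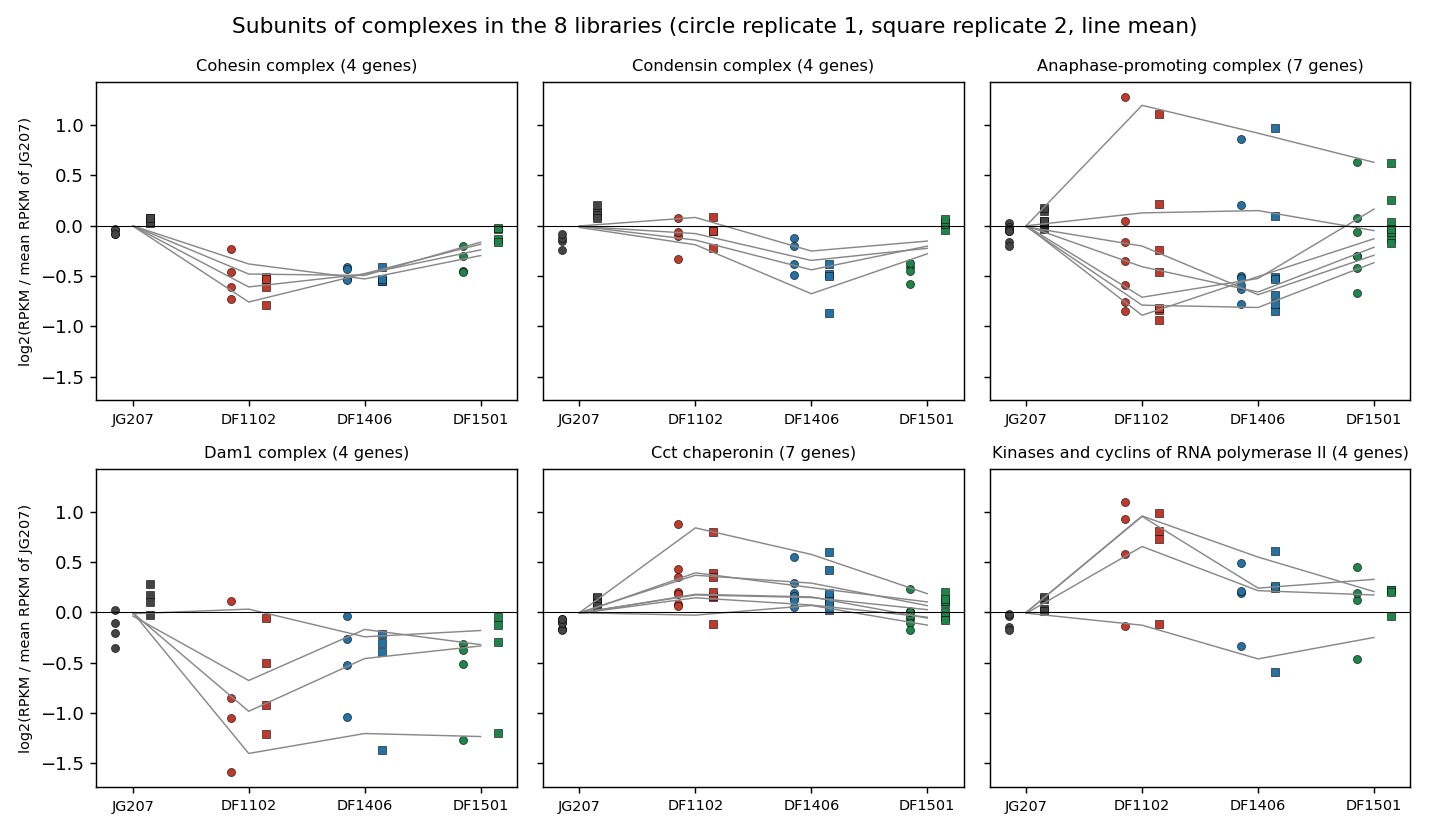
RPKM relative to the mean of the 2 JG207 libraries, as log2, for the subunits of 6 complexes in each strain, with circles for replicate 1, squares for replicate 2 and lines joining the mean of each gene. Cohesin genes lie below 0 in both DF1102 and DF1406. Condensin genes stay near 0 in DF1102 and lie below 0 in DF1406. In DF1102, 3 of the 4 kinases and cyclins of RNA polymerase II lie above 0.

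The anaphase-promoting complex tags cyclins and securin for destruction. Of its 7 subunit matches, 4 were lower and 1 higher in DF1102 than in JG207 by adjusted p. These are 57.1% and 14.3%, against 29.5% and 27.8% of all tested genes, and the median log2 fold change was -0.41. The higher one, Mycth_2296986, was measured at 10.1 and 10.8 RPKM for JG207, 25.4 and 22.6 for DF1102, 19.02 and 20.5 for DF1406, and 16.2 and 16.1 for DF1501. All 6 deletion libraries were above JG207 (log2 fold change 1.20, SE 0.11, edgeR adjusted p = 3.52e-05), and the call held in each fit with 1 library left out. Mycth_2054145 had 25.8 and 24.8 RPKM for JG207, 14.1 and 13.2 for DF1102, 17.95 and 17.7 for DF1406, and 20.6 and 26.1 for DF1501, with DF1102 lowest. Mycth_2080800, which matches the largest subunit, had 9.996 and 10.2 RPKM for JG207, 6.74 and 5.66 for DF1102, 7.04 and 7.01 for DF1406, and 10.7 and 12.1 for DF1501. Both were lower in DF1102 than in JG207 short of the fold minimum, at -0.90 and -0.71, and both were called higher in DF1501 than in DF1102 (log2 fold change 0.76, SE 0.12, edgeR adjusted p = 0.00208 and log2 fold change 0.87, SE 0.11, edgeR adjusted p = 0.000951). With Mycth_2311445, these were the 3 of the 13 higher calls of that comparison that held whichever library was left out. The catalytic core match Mycth_2309065 stayed within 37.6 to 45.4 RPKM, and no comparison passed the adjusted p. The activators of the complex, Mycth_2300744 and Mycth_2313356, differed by 0.27 and -0.33 in DF1102 and were not called anywhere.

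Of the 32 members with cyclin in the text, 2 were called lower and 1 higher in DF1102 against JG207, or 6.25% and 3.12% against 11.1% and 10.2% of all tested genes. The 32 include the 9 recycling matches, which are not cyclins and of which 0 were called, so these shares are lower than for the cyclin matches proper. The 5 matches to B-type cyclins and the main cell cycle kinase had a median log2 fold change of -0.60 in DF1102 against JG207. By adjusted p 3 were lower and 0 higher, or 60% lower against 29.5% of all tested genes. Among them, the B-type cyclin match Mycth_2296618 stood at 33.2 and 45.5 RPKM for JG207, 17.1 and 19.7 for DF1102, 23.8 and 17.4 for DF1406, and 22.1 and 34.4 for DF1501, and the DF1102 libraries were below those of JG207 and overlapped DF1406 (log2 fold change -1.09, SE 0.21, edgeR adjusted p = 0.00195). A second B-type cyclin, Mycth_2294547, and the kinase match Mycth_2306244 were lower short of the fold minimum (-0.60 and -0.65). The second kinase match Mycth_2303559 did not pass, at 0.05 (edgeR adjusted p = 0.745), and the kinase adaptor match Mycth_44554, one of the 6 members of highest mean RPKM, ranged from 352 to 466 RPKM and was not called in any comparison.

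The kinases and cyclins of RNA polymerase II act in transcription, not in division. Of their 4 matches, 3 were higher in DF1102 than in JG207 by adjusted p, or 75% against 27.8% of all tested genes. Mycth_2303023, a kinase of the polymerase holoenzyme, had 69.1 and 72.4 RPKM for JG207, 134 and 141 for DF1102, 99.6 and 108 for DF1406, and 80.99 and 82.4 for DF1501. DF1102 was highest in both libraries and JG207 lowest (log2 fold change 0.96, SE 0.11, edgeR adjusted p = 0.000118). Mycth_2311800, its cyclin-like partner in the yeast holoenzyme, had 18.9 and 19.2 RPKM for JG207, 40.9 and 33.5 for DF1102, 22.2 and 22.9 for DF1406, and 26.1 and 21.96 for DF1501, and again both DF1102 libraries lay above the other 6 (log2 fold change 0.96, SE 0.14, edgeR adjusted p = 0.000490). Both were called lower in DF1501 than in DF1102 (log2 fold change -0.76, SE 0.11, edgeR adjusted p = 0.00175 and log2 fold change -0.63, SE 0.14, edgeR adjusted p = 0.0102). The call of Mycth_2303023 held whichever library was left out, and that of Mycth_2311800 ended without replicate 1 of DF1102 or replicate 2 of DF1501 (edgeR adjusted p = 0.0854 and 0.0524). Mycth_2311800 was also called lower in DF1406 than in DF1102 (log2 fold change -0.65, SE 0.14, edgeR adjusted p = 0.0152), and this call ended without replicate 1 of DF1102 or either DF1406 library (edgeR adjusted p from 0.0739 to 0.119).

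Of the 9 matches to cyclins or inhibitors of Pho85, a kinase of nutrient signalling and growth, 1 was called higher and 1 lower in DF1102 against JG207. These are 11.1% each, against 10.2% higher and 11.1% lower of all tested genes. Mycth_2073265 was measured at 243 and 197 RPKM for JG207, 464 and 440.4 for DF1102, 316 and 319 for DF1406, and 424 and 388 for DF1501, with JG207 lowest (log2 fold change 1.03, SE 0.18, edgeR adjusted p = 0.00114), and without replicate 2 of JG207 its log2 fold change of 0.84 missed the fold minimum. Mycth_2306103 had 31.5 and 30.5 RPKM for JG207, 17.2 and 12.6 for DF1102, 16.2 and 16.3 for DF1406, and 20.1 and 28.6 for DF1501, with JG207 highest (log2 fold change -1.07, SE 0.17, edgeR adjusted p = 0.000775). DF1501 was called higher than DF1102 (log2 fold change 0.70, SE 0.17, edgeR adjusted p = 0.0144), which ended without replicate 2 of DF1102 or of DF1501 (edgeR adjusted p = 0.108 and 0.0792). The repressor match Mycth_2112712, which binds cyclin gene promoters in yeast, was low throughout, from 0.375 to 0.866 RPKM, and was higher in DF1102 short of the fold minimum (log2 fold change 0.97, SE 0.28, edgeR adjusted p = 0.0155). None of the 9 recycling matches was called in DF1102 against JG207. By adjusted p alone 5 of the 9 were higher and 1 lower, where 27.8% and 29.5% of all tested genes were. Without these 9, the members had 29 higher and 51 lower by adjusted p alone, against 34 and 52 with them. The median log2 fold change was then -0.14 against -0.09. The most abundant recycling match, the sorting nexin Mycth_2084007, ranged from 235 to 403 RPKM.

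Septins form the ring at the division site. Of 12 septin members, 7 were lower and 1 higher in DF1102 than in JG207 by adjusted p, where 29.5% and 27.8% of all tested genes were. Their median log2 fold change was -0.62, and 1 was called lower, or 8.33% against 11.1% of all tested genes. Of the 4 septin ring components, 3 were lower by adjusted p, or 75% against 29.5%. Mycth_2298148 stood at 37.1 and 44.4 RPKM for JG207, 25.1 and 23.1 for DF1102, 36.2 and 33.2 for DF1406, and 31.3 and 38.97 for DF1501, and the 2 DF1102 libraries were below all others (log2 fold change -0.76, SE 0.11, edgeR adjusted p = 0.000441). DF1406 was called higher than DF1102 (log2 fold change 0.59, SE 0.11, edgeR adjusted p = 0.0101), and no fit with 1 of those 4 libraries left out kept this call (edgeR adjusted p from 0.0519 to 0.0701). Library size scaling and limma put its log2 fold change at 0.51 to 0.52, under the fold minimum. Mycth_2086520 had 295 and 301 RPKM for JG207, 193 and 183 for DF1102, 194 and 216 for DF1406, and 274 and 231 for DF1501, with DF1102 lowest, DF1406 just above it and JG207 highest (log2 fold change -0.67, SE 0.16, edgeR adjusted p = 0.00538). Mycth_2311048 had 145 and 176 RPKM for JG207, 103 and 114 for DF1102, 131 and 119.8 for DF1406, and 101 and 135 for DF1501 and was lower in DF1102 (log2 fold change -0.57), where DF1501 overlapped it. Mycth_2302186 had 165 and 195 RPKM for JG207, 156 and 168 for DF1102, 145 and 156 for DF1406, and 135 and 158 for DF1501, overlapping between JG207 and DF1102, and its log2 fold change of -0.15 did not pass (edgeR adjusted p = 0.310).

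The called septin member was Mycth_2299178, 1 of 3 genes matching a kinase for septin ring assembly, with 20.98 and 12.04 RPKM for JG207, 7.44 and 6.003 for DF1102, 8.60 and 7.51 for DF1406, and 10.5 and 18.1 for DF1501. Replicates of JG207 and of DF1501 lay far apart, and DF1102 was below both (log2 fold change -1.32, SE 0.30, edgeR adjusted p = 0.00485). Against DF1102 it was called higher in DF1501 (log2 fold change 1.08, SE 0.30, edgeR adjusted p = 0.0232), which ended without either DF1102 library or without replicate 2 of DF1501 (edgeR adjusted p from 0.0839 to 0.144). A second kinase of this text, Mycth_2309609, had 79.4 and 93.1 RPKM for JG207, 46.7 and 46.3 for DF1102, 46.7 and 39.97 for DF1406, and 57.8 and 81.2 for DF1501 and was lower in DF1102 and DF1406 short of the fold minimum (-0.89 and -0.93). The 2 checkpoint kinase matches of the Nim1 type went apart. Mycth_2307897 was higher in DF1102 than in JG207 (log2 fold change 0.57) and called lower in DF1501 than in DF1102 (log2 fold change -0.73, SE 0.19, edgeR adjusted p = 0.0175), a call lost without replicate 2 of either strain (edgeR adjusted p = 0.127 and 0.0733). Mycth_98318, the lowest member at 0.235 to 0.517 RPKM, was lower in DF1102 (log2 fold change -0.95, edgeR adjusted p = 0.0194). The morphogenesis kinase match Mycth_2109153 had 3.22 and 3.69 RPKM for JG207, 2.34 and 3.04 for DF1102, 4.51 and 4.09 for DF1406, and 2.71 and 3.01 for DF1501 and was called higher in DF1406 than in DF1102 (log2 fold change 0.74, SE 0.21, edgeR adjusted p = 0.0377), a call that no fit without 1 of the 4 libraries kept (edgeR adjusted p from 0.0674 to 0.208). It was also lost in DESeq2 (adjusted p = 0.0769), with library size scaling (edgeR adjusted p = 0.0635) and, by the fold minimum, in limma on log2(RPKM + 1) (log2 fold change 0.53). An arginine methyltransferase match that sits at the bud neck in yeast, Mycth_2071301, had 24.3 and 28.5 RPKM for JG207, 14.3 and 13.9 for DF1102, 18.5 and 20.1 for DF1406, and 19.3 and 22.5 for DF1501, and DF1102 was lowest without overlap (log2 fold change -0.91, SE 0.11, edgeR adjusted p = 0.000142).

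Of the 24 members selected by mitotic or mitosis, 2 were called higher and 1 lower in DF1102 against JG207. These are 8.33% and 4.17%, against 10.2% and 11.1% of all tested genes. With no fold minimum 7 passed in each direction, where 27.8% of all tested genes were higher and 29.5% lower. The endochitinase match Mycth_113450, which separates cells after division in yeast, had 48.2 and 50.02 RPKM for JG207, 259 and 264 for DF1102, 294 and 344 for DF1406, and 204 and 144 for DF1501. All 6 deletion libraries lay well above JG207 (log2 fold change 2.41, SE 0.21, edgeR adjusted p = 3.5e-05). It was called higher in DF1406 and DF1501 as well (log2 fold change 2.76, SE 0.22, edgeR adjusted p = 3.87e-05 and log2 fold change 1.83, SE 0.21, edgeR adjusted p = 0.000600), and was the only member called higher in DF1501 against JG207. These 3 calls held in each fit with 1 library left out. Of 4 mismatch repair matches, Mycth_2086451 had 25.4 and 26.1 RPKM for JG207, 71.01 and 70.1 for DF1102, 38.1 and 36.4 for DF1406, and 35.4 and 37.3 for DF1501, with DF1102 highest and JG207 lowest (log2 fold change 1.45, SE 0.09, edgeR adjusted p = 8.38e-06). It was called lower than in DF1102 in DF1406 and DF1501 (log2 fold change -0.86, SE 0.09, edgeR adjusted p = 0.00132 and log2 fold change -0.96, SE 0.09, edgeR adjusted p = 0.000305), and these calls held too. Mycth_2308482, with 5.11 and 5.79 RPKM for JG207, 2.56 and 2.78 for DF1102, 3.24 and 3.07 for DF1406, and 2.93 and 4.26 for DF1501, was called lower in DF1102 than in JG207 (log2 fold change -1.03, SE 0.16, edgeR adjusted p = 0.000641), and Mycth_2296585 stood at 0.513 and 0.749 RPKM in DF1102 against 1.07 to 1.85 RPKM in DF1406 and DF1501. The latter was called higher in DF1501 than in DF1102 (log2 fold change 1.27, SE 0.33, edgeR adjusted p = 0.0184) and lost the call without replicate 1 of either strain (edgeR adjusted p = 0.126 and 0.0907). Mycth_2303986, a DNA topoisomerase III match, stayed just inside 2-fold in DF1102 (log2 fold change -0.98, SE 0.17, edgeR adjusted p = 0.00120).

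Polo-like kinase is a regulator of mitosis and cytokinesis, and its text was carried by 5 genes. Their log2 fold changes in DF1102 against JG207 ran from -0.96 to 0.86. By adjusted p 2 were lower and 1 higher, or 40% and 20% against 29.5% and 27.8% of all tested genes, and none was called. Mycth_2061275 was measured at 1.57 and 1.72 RPKM for JG207, 2.67 and 3.32 for DF1102, 3.39 and 3.56 for DF1406, and 2.58 and 1.96 for DF1501 and was called higher in DF1406 than in JG207 (log2 fold change 1.14, SE 0.26, edgeR adjusted p = 0.00989), a call that ended without replicate 2 of JG207 or of DF1406 (edgeR adjusted p = 0.0508 and 0.0524) and, by the fold minimum, in limma on log2(RPKM + 1) (log2 fold change 0.76). Mycth_2294870 was lower in DF1102 and DF1406 short of the fold minimum (-0.57 and -0.68), while Mycth_2300993 did not pass in either (-0.09 and -0.22). The mitotic exit network match Mycth_2312297 had 65.8 and 71.9 RPKM for JG207, 39.5 and 47.8 for DF1102, 39.6 and 39.6 for DF1406, and 69.8 and 66.2 for DF1501. JG207 and DF1501 overlapped and lay above DF1102 and DF1406 (log2 fold change -0.66, SE 0.12, edgeR adjusted p = 0.00159 in DF1102). It was called higher in DF1501 than in DF1102 (log2 fold change 0.64, SE 0.12, edgeR adjusted p = 0.00511), but missed the fold minimum without replicate 1 of DF1102 or of DF1501 (log2 fold changes 0.49 and 0.55). Mycth_2310909, matching a glucosamine-6-phosphate acetyltransferase, was called lower in DF1501 than in DF1102 (log2 fold change -0.64, SE 0.10, edgeR adjusted p = 0.00256), and without replicate 1 of DF1501 its log2 fold change of -0.55 missed the minimum.

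**Figure D5:**
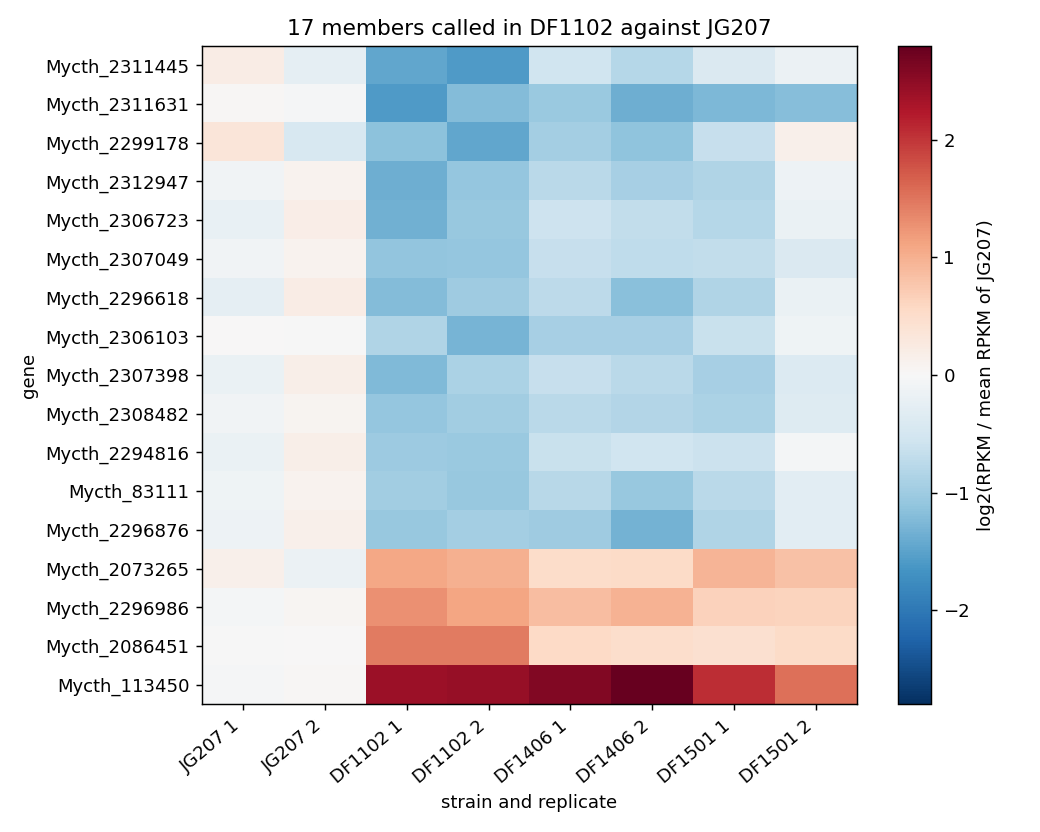
The 17 members called in DF1102 against JG207, ordered by log2 fold change, with the colour giving log2 of RPKM over the mean of the 2 JG207 libraries in each library. The 13 lower genes are blue in both DF1102 libraries and mostly paler in replicate 2 of DF1501, and the 4 higher genes are red in all 6 deletion libraries, most of all Mycth_113450.

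Across the 17 calls of DF1102 against JG207, support from single libraries differed. The lower calls of Mycth_2311445, Mycth_2311631, Mycth_2312947, Mycth_2306723 and Mycth_2307049 and the higher calls of Mycth_113450, Mycth_2086451 and Mycth_2296986 held in every fit with 1 library left out. The other 8 lower genes stayed lower. Without replicate 2 of JG207, Mycth_2294816, Mycth_2296618, Mycth_2296876, Mycth_2307398, Mycth_2308482 and Mycth_83111 had log2 fold changes of -0.91 to -0.998 and Mycth_2073265 had 0.84. Without replicate 1 of DF1102, Mycth_2296618, Mycth_2296876, Mycth_2307398 and Mycth_2308482 had -0.86 to -0.97. Without replicate 2 of DF1102, Mycth_2306103 and Mycth_83111 had -0.88 and -0.99, and Mycth_2299178 had -1.19 with an edgeR adjusted p of 0.0502. Without replicate 1 of JG207, Mycth_2299178 and Mycth_2306103 had -0.77 and -0.97. In limma on log2(RPKM + 1), Mycth_2294816, Mycth_2296876, Mycth_2307398, Mycth_2308482 and Mycth_83111 missed the fold minimum, at -0.81 to -0.98, and on log2(RPKM + 0.1) Mycth_2296876 and Mycth_83111 did, at -0.9903 and -0.9988.

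In DF1406 against JG207, 2 members were called higher, Mycth_113450 and Mycth_2061275, and 2 lower, Mycth_2311631 and Mycth_2296876. Each is 1.27% of the members, against 7.13% higher and 4.01% lower of all tested genes. With no fold minimum, however, 50 members were lower and 9 higher, or 31.8% and 5.73% against 19.7% and 17.2%, and the median log2 fold change of the members was -0.18 against -0.05. The lower ones included all 4 cohesin matches, 5 of 7 subunits of the anaphase-promoting complex and 7 of 17 kinetochore members. Leaving out 1 of the 4 libraries reduced the 50 to between 16 and 27, or 10.2% to 17.2%, against 7.95% to 11.9% of all tested genes. The difference in either count against the background was not tested.

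In DF1501 against JG207, 1 member was called in each direction, or 0.637% against 4.69% higher and 1.30% lower of all tested genes, and 7 higher and 12 lower passed with no fold minimum (4.46% and 7.64% against 11.7% and 9.56%). The 7 became 4 without replicate 2 of JG207. The 12 became 4 and 2 without replicate 1 or 2 of JG207, 1 without replicate 1 of DF1501 and 25 without replicate 2 of DF1501. Of the 4 tubulins, only Mycth_2307398 passed in this comparison (log2 fold change -0.63, SE 0.18, edgeR adjusted p = 0.0365). For DF1406 against DF1102, 4 members were called in each direction, 2.55% each, against 7.81% higher and 4.32% lower of all tested genes, and with no fold minimum 8 and 15, or 5.10% and 9.55% against 11.9% and 9.90%. Without either DF1102 library the latter counts were 0 and 3, and without either DF1406 library 1 and 2. Of these 8 calls, the lower ones of Mycth_2086451 and Mycth_2300332 held in each fit with 1 library left out, and the 4 higher ones, Mycth_2311445, Mycth_2312047, Mycth_2298148 and Mycth_2109153, did not.

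In DF1501 against DF1102, the 13 higher calls depended on the libraries used. They numbered 4 without replicate 1 of DF1102, 7 without replicate 2 of DF1102, 21 without replicate 1 of DF1501 and 10 without replicate 2 of DF1501. The alpha- and beta-tubulin matches Mycth_2312947 and Mycth_2306723 were among them (log2 fold change 0.75, SE 0.19, edgeR adjusted p = 0.0171 and log2 fold change 0.72, SE 0.20, edgeR adjusted p = 0.0213). Both lost the call without replicate 1 of DF1102 (edgeR adjusted p = 0.13 and 0.151) and without replicate 2 of DF1501 (0.0805 and 0.101), the beta-tubulin gene also without replicate 2 of DF1102 (0.053). Mycth_2294816 lost it in 3 of 4 such fits (edgeR adjusted p from 0.0692 to 0.0731).

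In DF1501 against DF1406, 3 members were called higher, Mycth_2080800, Mycth_2309609 and Mycth_2312297, and Mycth_113450 was called lower. These are 1.91% and 0.637% of the members, against 1.96% and 1.84% of all tested genes. With no fold minimum the forkhead match Mycth_2305050 joined the higher genes (log2 fold change 0.51, SE 0.11, edgeR adjusted p = 0.0391) and Mycth_2303853, a dynein-related match that serves ribosome assembly, joined Mycth_113450 (log2 fold change -0.49, SE 0.11, edgeR adjusted p = 0.0391), or 2.55% and 1.27% against 2.53% and 2.29%. Without either DF1406 library the counts with no fold minimum were 0 and 0, without replicate 1 of DF1501 they were 11 and 3, and without replicate 2 of DF1501 1 and 0. No call of this comparison held in every fit with 1 library left out.

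Other genes of the same processes, drawn by words from descriptions of genes that are not members, are set here beside the shares over all tested genes, which were 11.1% lower and 10.2% higher in DF1102 against JG207. Of 47 DNA replication genes, 19 were called lower and 0 higher, or 40.4% lower, with a median log2 fold change of -0.93, and in DF1501 against DF1102 19 were called higher and 0 lower, or 40.4% higher against 13.1%. Of 8 histone genes, 3 were called lower and 0 higher, or 37.5% lower, with a median of -0.69. Of 50 other cell cycle and checkpoint genes, 7 were called lower and 2 higher, or 14% and 4%, near and below the background, and the median was -0.06. Of 62 actin cytoskeleton genes, 1 was called lower and 4 higher, or 1.61% and 6.45%, both below it, with a median of 0.15. Of 36 polarity and exocyst genes, 0 were called lower and 1 higher, or 2.78% higher, with a median of 0.14, and none of 10 other microtubule and centromere genes was called, 3 of them passing the adjusted p alone as higher. In DF1501 against DF1102, 10 of the 50 cell cycle and checkpoint genes were called higher and 3 lower. These are 20% and 6%, against 13.1% and 8.24% of all tested genes. Of the 8 histone genes, 2 were called higher there and 0 lower, or 25% higher. The actin, polarity and exocyst, and microtubule and centromere lists had 4.84%, 2.78% and 10% called higher. In DF1102 against JG207 the members, with a median of -0.09, lay between the replication genes and the actin and polarity genes.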

How the data were processed

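Strains, medium and sampling were as given above. Per the labels and the study's methods, the authors trimmed reads with SOAPnuke, mapped them to genome v2.0 of the species with TopHat2 2.0.12 and counted reads unique to one gene with HTSeq 0.13.5. The authors deposited raw read counts per gene and RPKM values made from them. Whether counting used strand is not given in the sources used here, and genes with the same description may differ in how many of their reads map uniquely. Among the deposited counts, 3 rows without a gene ID were left out.

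Counts of all 8 libraries were fitted together in edgeR 4.0.16 (TMM factors, filterByExpr with a minimum count of 10, quasi-likelihood test, Benjamini-Hochberg over 8335 genes, R 4.3.3). SE was taken as the absolute log2 fold change over the root of F. RPKM values are shown as deposited, untested. Alternatives were DESeq2 1.42.0, RLE or library size scaling, other filters, only the libraries compared, a replicate block, limma 3.58.1 on log2(RPKM + 1) or log2(RPKM + 0.1), no fold minimum, and each library left out in turn. Where that left 1 library in a strain, it was assumed to vary like the others. The fit was tested on simulated data.

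Members and lists were chosen with earlier results of these data known. The genes named are the tubulins and septins themselves, in each comparison the 4 highest and the 4 lowest called, in each word group the 2 with the largest differences in DF1102 against JG207 and in DF1501 against DF1102, and the 6 of highest mean RPKM. Other named members, all complexes and the text on dynein, polo-like kinase and Pho85 were chosen after values were seen. In the actin list, 6 genes matched only by the letters of formin in forming were left out. Locus tags of all 157 members matched RefSeq. Sequences were not used here, so the planned motif count in promoters was not run.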

Additional observations from a re-analysis of the deposited data

Results flagged for a closer look

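The difference from DF1102 was compared between DF1406 and DF1501 by the edgeR contrast of the 2 strains, which carry the same deletion as DF1102. The study lists both as JG207 with this deletion and does not name DF1102 as their parent. For 4 members this difference was called, 3 higher in DF1501 and 1 lower, or 1.91% and 0.637% of the members against 1.96% and 1.84% of all tested genes. They were the anaphase-promoting complex subunit Mycth_2080800 (log2 fold change 0.62, SE 0.11, edgeR adjusted p = 0.0189), the septin ring kinase match Mycth_2309609 (log2 fold change 0.61, SE 0.14, edgeR adjusted p = 0.0434), the mitotic exit network match Mycth_2312297 (log2 fold change 0.72, SE 0.12, edgeR adjusted p = 0.0189) and the endochitinase match Mycth_113450 (log2 fold change -0.93, SE 0.20, edgeR adjusted p = 0.0391). Mycth_2080800 stood at 7.04 and 7.01 RPKM for DF1406 and 10.7 and 12.1 for DF1501. Mycth_2309609 stood at 46.7 and 39.97 RPKM for DF1406 and 57.8 and 81.2 for DF1501. Mycth_2312297 stood at 39.6 and 39.6 RPKM for DF1406 and 69.8 and 66.2 for DF1501. Mycth_113450 stood at 294 and 344 RPKM for DF1406 and 204 and 144 for DF1501. The libraries of the 2 strains did not overlap for any of the 4. Nor did they for many of the 8335 tested genes, with 2790 higher and 1590 lower in DF1501. None of the 4 calls held in every fit with 1 library left out. Without either DF1406 library all 4 were lost, and without replicate 2 of DF1501 all but Mycth_2312297. With replicate number as a block, Mycth_2309609 and Mycth_113450 lost the call (edgeR adjusted p = 0.058 and 0.0517). Mycth_2309609 also lost it in limma on log2(RPKM + 1) without a filter (adjusted p = 0.0689). In a fit of only the 4 libraries compared, the edgeR adjusted p was 0.0708, 0.127, 0.0603 and 0.128 in the order above.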

How the results depend on the processing

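No alternative reversed a called member: over all pairs of a called member in its comparison and an alternative, 630 kept the call, 125 lost it, 0 changed direction and 1 was not tested. Without a fold minimum, counts in the order higher and lower were 34 and 52 in DF1102 against JG207, 9 and 50 in DF1406 against JG207, 7 and 12 in DF1501 against JG207, 8 and 15 in DF1406 against DF1102, 26 and 24 in DF1501 against DF1102, and 4 and 2 in DF1501 against DF1406. limma on log2(RPKM + 1), with or without a filter, called 8 members lower in DF1102 against JG207, 1 higher in DF1406 against JG207 and 1 higher in DF1406 against DF1102, where limma on log2(RPKM + 0.1) called 2 and library size scaling 1. With only the 4 libraries compared, 7 were higher in DF1406 against DF1102, and 0 higher and 0 lower in DF1501 against DF1406. With 1 library left out, counts ranged as follows. DF1102 against JG207 had 4 to 6 higher and 8 to 14 lower. DF1406 against JG207 had 1 to 3 higher and 0 to 5 lower. DF1501 against JG207 had 1 to 2 higher and 1 to 1 lower. DF1406 against DF1102 had 0 to 1 higher and 2 to 3 lower. DF1501 against DF1102 had 4 to 21 higher and 5 to 7 lower. DF1501 against DF1406 had 0 to 8 higher and 0 to 1 lower. Why calls were lost, by the fold minimum or by adjusted p, was not tested.

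Replicate numbers were shared by the strains. Deviations of same-numbered libraries correlated between -0.22 and 0.17 over pairs of strains, so the numbers were not taken to pair the samples. With replicate number as a block, the pairing gave 13 lower and 4 higher in DF1102 against JG207, 13 higher and 6 lower in DF1501 against DF1102, 5 higher and 4 lower in DF1406 against DF1102, and 2 higher and 0 lower in DF1501 against DF1406, where Mycth_2309609 and Mycth_113450 lost the call. With 2 libraries a strain, some differences under 1.5-fold passed the adjusted p and others did not, and no smallest detectable fold is given here. Members of a few reads, such as Mycth_74402, had the least precise values.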
